A study of Mus musculus with 8 samples.

Results

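Heat shock proteins and other chaperones were compared between lung neutrophils of mice with pneumococcal pneumonia and of mice given saline. The genes were 40 named chaperones, co-chaperones and heat shock factors, and all 40 had a row among the 24625 rows (19836 gene symbols) of the deposited table. Each was represented by 1 row. They comprised 19 genes of the cytosol and nucleus, 2 heat shock factors, 6 genes of the endoplasmic reticulum (ER), 3 mitochondrial genes, 3 small heat shock proteins and 7 subunits of the CCT chaperonin.

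The mice were wild type (WT), and 6 to 12 weeks old by the labels (the study's methods give a narrower range). By those methods they were matched for age and sex, and adult female C57BL/6J mice were bought to found colonies. They received Streptococcus pneumoniae (the SP group) or phosphate-buffered saline (the PBS group) into the left lung through the trachea, both as 2.3 µl for each g the mouse weighed, and lungs were taken after 24 h. No group carried an engineered allele. Cells were released from the lung by enzymatic digestion and sorted with magnetic beads that bind Ly6G, which marks neutrophils in mice. The purity of the cells was examined on cytospins of pneumonia samples alone. There the study reports high purity, the few other cells mostly resembling alveolar macrophages. It also reports high Ly6G mRNA in every sample, but no row carried that symbol here. RNA of each sample was hybridised to its own Affymetrix Mouse Gene 1.1 ST array, 4 for PBS and 4 for SP. By the study each sample came from a mouse.

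Chaperones bind unfolded or partly folded proteins and use cycles of ATP binding to help them reach or keep their shape. In the cytosol, J proteins deliver clients to HSP70, HSP110 proteins exchange its nucleotide, and co-chaperones pass clients on to HSP90. Heat, oxidants and other protein-damaging stress activate heat shock factor 1 (HSF1), which binds heat shock elements in the promoters of many of these genes, while the unfolded protein response controls the chaperones of the ER.

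Values are log2 signals, and a difference is the SP mean minus the PBS mean, so that -1 stands for a value lowered to 1/2. A gene was called when its adjusted p was at most 0.05 by limma over all 24625 rows. Levels of different genes come from different probes and are not compared. Array medians were lower in SP than in PBS by 0.28 on average, although the median difference over rows was 0.10, and differences of this size depend on the scaling of the arrays. Neutrophil markers were bright in both groups, with a list mean of 12.34 to 12.66 on the PBS arrays and 11.87 to 12.91 on the SP arrays. SP replicate 3 stood apart. It had the lowest value of the 4 SP arrays in 30 of the 40 genes and received the lowest array weight (0.197, against 0.464 to 2.69 on the other arrays), and SP replicate 4 had the highest SP value in 28 of the 40.

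Promoter stretches of the genes on which the results turn are shown first. They come from RefSeq windows of the mouse assembly GRCm38.p6, which run from 250 bases before to 50 bases after a transcription start, and positions count from the first transcribed base, which is 1. Capitals mark a motif. The heat shock element was searched on both strands as the units GAA, TTC and GAA, with any pair of letters between neighbouring units. In Hsph1 (chr5:149636286-149636345, minus strand) the element lies at positions 16 to 28, just behind the start. In Chordc1 (chr9:18292227-18292286, plus strand) 3 overlapping matches span positions -4 to 19. In Hspe1 (chr1:55088028-55088097, plus strand) a pair of overlapping matches spans positions -89 to -72. They lie between this gene and the divergent Hspd1 by 1 of 2 listed Hspd1 starts, which is 216 bases away. The other listed start gives -95 bases, so that by it the transcripts overlap and the matches do not lie between the starts.
Hsph1: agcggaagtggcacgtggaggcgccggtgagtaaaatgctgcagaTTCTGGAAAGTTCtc
Chordc1: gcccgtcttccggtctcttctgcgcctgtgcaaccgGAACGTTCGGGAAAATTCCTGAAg
Hspe1: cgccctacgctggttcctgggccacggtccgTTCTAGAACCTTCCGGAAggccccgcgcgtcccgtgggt

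A shorter core of this element, GAANNTTC, reads alike on both strands and is contained in every match of the longer one. It is shown for Hspb1, the gene with the largest fall among the small heat shock proteins (chr5:135887789-135887848, plus strand), and for Hspa1a (chr17:34972227-34972286, minus strand). The neighbouring Hspa1b has the same letters in this stretch, and the windows of both genes are identical at 296 of 300 bases (98.7%). These are near-identical copies, and probes may not separate their transcripts, so their values are uncertain as measures of either gene alone.
Hspb1: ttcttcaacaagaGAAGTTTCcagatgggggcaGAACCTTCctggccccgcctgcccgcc
Hspa1a: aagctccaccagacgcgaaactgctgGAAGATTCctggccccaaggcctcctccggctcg

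Another motif was found in 4 of the 6 ER genes. The ER stress element was searched on both strands as CCAAT followed, after 9 letters of any kind, by CCACG. It is shown for Hspa5 (chr2:34772000-34772059, plus strand), for Hsp90b1 with matches at both ends of the stretch (chr10:86705525-86705664, minus strand) and for Calr (chr8:84847052-84847111, minus strand), because these genes differed from each other in the comparison of SP with PBS.
Hspa5: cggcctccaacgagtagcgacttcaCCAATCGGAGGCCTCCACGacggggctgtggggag
Hsp90b1: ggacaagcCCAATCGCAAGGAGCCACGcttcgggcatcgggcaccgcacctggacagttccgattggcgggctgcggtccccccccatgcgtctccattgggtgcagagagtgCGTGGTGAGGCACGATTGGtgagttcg
Calr: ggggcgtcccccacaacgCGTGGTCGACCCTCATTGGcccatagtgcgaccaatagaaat

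Chaperone genes were mostly lower in SP. Of the 40 genes, 25 (62.5%) were called lower, against 22.6% of all rows, and 1 gene, the co-chaperone St13, was called higher, against 21.5% of all rows. In either direction 44.1% of rows were called. At least 2-fold differences with a call were found for 14 genes (35.0%), all lower, against 11.3% of all rows, and no chaperone gene was called at least 2-fold higher, against 6.37%. All 40 genes had a mean at or above the median of all rows, and of the 12313 rows that bright, 36.0% were called lower, 20.1% at least 2-fold lower and 24.3% higher. The SP values of 25 genes lay entirely below their PBS values (21.8% of all rows did), and those of 2 genes, St13 and Dnaja2, entirely above (27.2% of rows). The median difference over the 40 genes was -0.63, beside 0.10 over all rows and -0.15 over the brighter rows. In RNA of a cell suspension, fewer cells of a type and less RNA per cell cannot be told apart.

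The classes differed in size of change. Median differences were -2.20 for the small heat shock proteins, -1.13 for the mitochondrial genes, -1.01 for the heat shock factors, -0.62 for the cytosolic genes, -0.51 for the ER genes and -0.31 for the CCT subunits. All 3 small heat shock proteins, 2 of 3 mitochondrial genes, 1 of 2 heat shock factors, 7 of 19 cytosolic genes and 1 of 6 ER genes were at least 2-fold lower, and no CCT subunit was. Without SP replicate 3, 26 genes were called lower, and the count of 14 at least 2-fold lower was 9, with Bag3, Chordc1, Hsf1, Pdia4, Hspd1 and Hspe1 no longer at 2-fold and Hsp90aa1 added. Without SP replicates 3 and 4 together the counts were 29 and 14, with Hsf1 and Pdia4 no longer at 2-fold and Hsp90aa1 and Dnajb4 added. A further quantile normalization also gave 29 and 14, with Hsp90aa1, Hsp90ab1 and Hsp90b1 in place of Bag3, Chordc1 and Hsf1. Array weights gave 30 and 11. With each array centred on its median the count was 7, and the calls were 18 lower and 4 higher in place of 25 and 1.

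**Figure D1:**
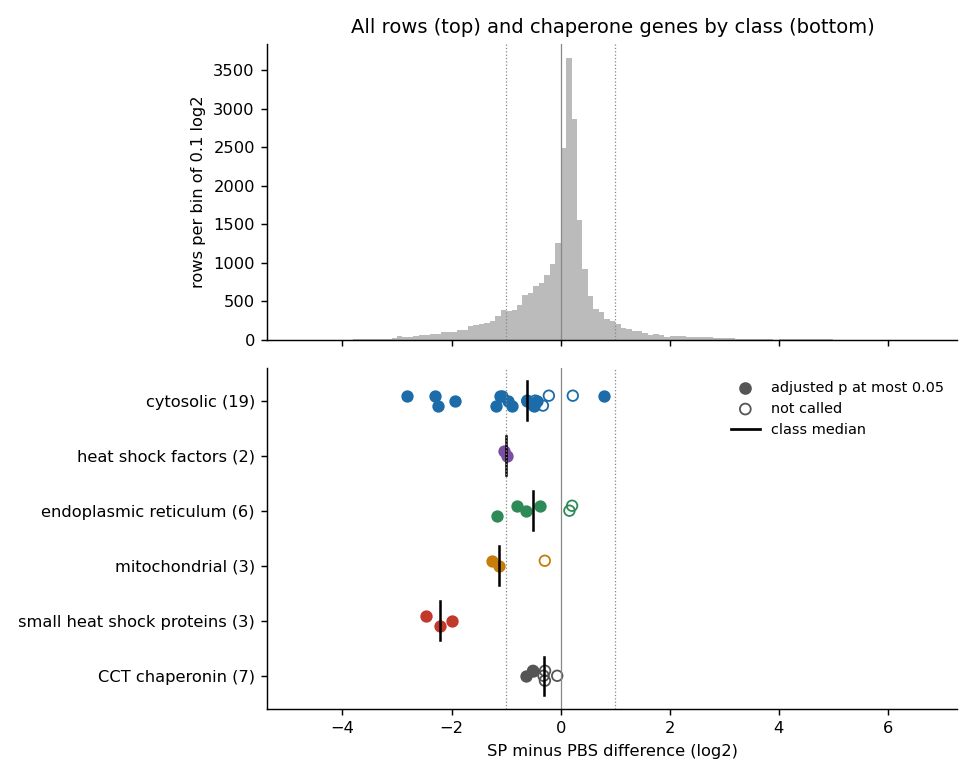
SP minus PBS differences (log2) of all 24625 rows, as counts in bins (top), and of the 40 chaperone genes by class (bottom; filled points were called at an adjusted p of at most 0.05, black lines are class medians, dotted lines mark 2-fold). The 3 small heat shock proteins lie between -2.47 and -1.99, the CCT subunits between -0.64 and -0.06, and St13 at 0.80 is the called gene to the right of 0.

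The SP arrays were also more variable than the PBS arrays. The SD over 4 arrays was larger in SP for 38 of the 40 genes, the exceptions being Hspa14 and Hsp90b1, and its median was 0.36 in SP and 0.16 in PBS. Over all rows the SD was larger in SP for 16175 rows, with medians of 0.18 and 0.13. Of the 14 genes at least 2-fold lower, SP replicate 3 was the lowest array in 11 and SP replicate 4 the highest SP array in 13. Over the 2773 rows at least 2-fold lower, SP replicate 3 was the lowest in 67.2% and SP replicate 4 the highest SP array in 63.8%.

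Markers of most other lung cells were lower in SP too. For comparison, 22.6% of all rows were called lower, and 36.0% of rows with a mean at or above the median of all rows. The fibroblast and neutrophil lists lay near these shares, so their counts do not set those cells apart from the array as a whole. All 10 markers of ciliated epithelium and all 5 of club cells with a row were called lower, as were 7 of 9 alveolar type 2, 5 of 6 alveolar type 1, 7 of 9 endothelial, 3 of 8 fibroblast, 4 of 7 alveolar macrophage and all 5 B cell markers, while 3 of 10 neutrophil markers were called lower and none of 5 T cell markers was. Called higher were 1 T cell marker and Chil3, the brightest of the alveolar macrophage list, at 10.46 to 11.62 in PBS and 11.64 to 12.35 in SP (0.97, adjusted p = 0.0216 by limma). The mean of the club cell list ran from 12.33 to 13.11 in PBS and from 10.01 to 11.17 in SP, that of the alveolar type 1 list from 10.06 to 10.84 and from 8.27 to 9.35, and that of the endothelial list from 10.36 to 11.29 and from 8.78 to 10.01. SP replicate 3 was the lowest and SP replicate 4 the highest SP array in 6 of the 10 lists (club, alveolar type 1 and 2, endothelial, fibroblast and alveolar macrophage). SP replicate 2 was the highest in the ciliated and B cell lists, with replicate 3 the lowest, and in the T cell list, with replicate 4 the lowest, and the neutrophil list was lowest in SP replicate 2 and highest in SP replicate 3. The class mean of the small heat shock proteins was 10.25 to 10.61 in PBS and 8.11, 8.15, 7.33 and 9.29 in SP replicates 1 to 4. The means of the ciliated list were 9.09 to 9.94 in PBS and 6.72 to 7.31 in SP, those of the alveolar type 2 list 11.61 to 12.15 and 9.90 to 11.18, those of the fibroblast list 8.34 to 9.09 and 7.32 to 9.14, those of the alveolar macrophage list 8.76 to 9.57 and 7.69 to 8.26, those of the B cell list 8.10 to 9.07 and 6.03 to 7.37, and those of the T cell list 5.35 to 6.04 and 5.51 to 6.55. Y-linked genes, which lay at 4.33 to 4.90 on all arrays, served as a measure of background, and in no list did a marker stay at or below that level on all arrays of a group. The T cell list lay close above that level, so a fall there could hardly show. Scgb1a1 (club cells) was at 13.55 to 13.75 in PBS and 12.96 to 13.05 in SP, and Sftpc (alveolar type 2 cells) at 13.26 to 13.45 and 12.01 to 12.83. The part of these cells in the chaperone differences was not tested.

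**Figure D2:**
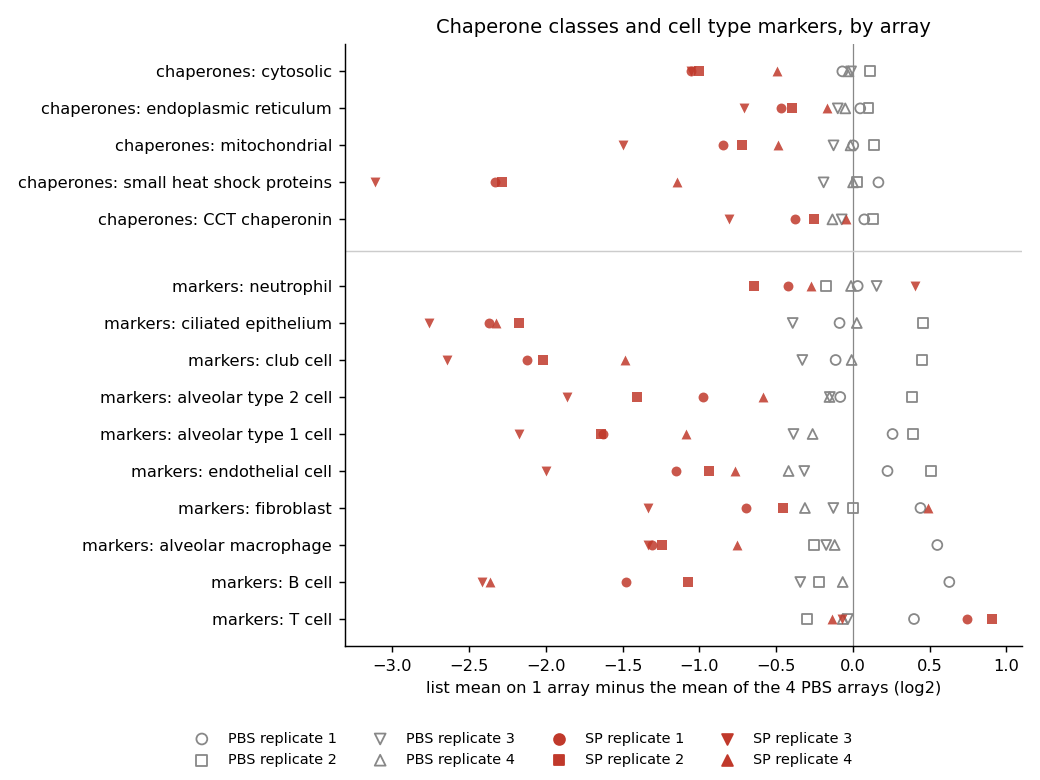
Mean log2 value of each chaperone class and each list of cell type markers on 1 array, minus the mean of the 4 PBS arrays (open symbols PBS, filled symbols SP, 1 shape per replicate number). SP values lie left of all PBS values in the 5 chaperone classes except that CCT replicate 4 falls among the PBS arrays, and in the ciliated, club, alveolar, endothelial, alveolar macrophage and B cell lists.

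Immediate early genes, which rise within minutes when cells are handled or stimulated, showed no common direction. Of 14 with a row, 2 were called lower and 2 higher (14.3% each, beside 22.6% and 21.5% of all rows). The list mean was 11.002 to 11.56 on the PBS arrays and 11.18 to 11.55 on the SP arrays.

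The heat shock factors themselves were lower in SP. Hsf1, which encodes the main activator of heat shock genes, lay at 9.45, 9.48, 9.01 and 9.30 in PBS replicates 1 to 4 and at 8.30, 8.72, 7.47 and 8.60 in SP replicates 1 to 4. No SP value reached the lowest PBS value, and the difference was -1.04 (SE 0.26, adjusted p = 0.0134 by limma). Hsf2, a relative that can form mixed trimers with HSF1, fell by 0.98 from a mean of 8.24 ± 0.23 to 7.26 ± 0.65 (SD, n = 4 each, adjusted p = 0.0297 by limma). The Hsf2 call held in 10 of 15 alternatives, in which its adjusted p ranged from 0.00473 to 0.0729. These are transcript levels, and the activity of HSF1 is set mainly by its trimers and phosphorylation.

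Among the cytosolic HSP70 and HSP110 genes the stress-inducible ones fell most. Hsph1, which encodes the HSP110 nucleotide exchange factor HSP105, had values of 10.04, 10.72, 10.29 and 10.19 in PBS and 7.39, 7.92, 5.90 and 8.73 in SP. Every SP array was at least 1 log2 unit below every PBS array, and the difference of -2.82 (SE 0.52, adjusted p = 0.00310 by limma) was the largest fall of the 40 genes. Hspa1a, an inducible HSP70, lay at 12.06, 12.38, 12.37 and 12.35 in PBS and at 9.44, 8.79, 10.33 and 11.38 in SP. Its PBS values were close together and its SP values spread over more than 2 log2 units, with replicate 4 nearest to PBS (difference -2.30, SE 0.49, adjusted p = 0.00575 by limma). Hspa1b, its near-identical copy, gave 11.74, 12.03, 12.06 and 11.98 in PBS and 9.34, 9.001, 10.34 and 11.35 in SP, with the arrays in the same order within SP (difference -1.94, SE 0.46, adjusted p = 0.00981 by limma).

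The other members of these families differed less. Hspa8, the constitutive HSP70 of the cytosol, was at 12.85 to 13.04 in PBS and 12.52 to 12.92 in SP, and the groups overlapped (difference -0.22, 95% confidence interval -0.44 to 0.01, adjusted p = 0.102 by limma), and with centred arrays the difference was 0.065 (adjusted p = 0.551). Within an array, the log2 ratio of Hspa1a to Hspa8 was lower than its PBS mean on every SP array, with differences of -2.62, -3.30, -1.53 and -0.90 in replicates 1 to 4. Hspa4, an HSP110-type exchange factor, fell by 0.49 with no overlap (adjusted p = 0.00131 by limma), from 10.60 to 10.72 in PBS to 10.03 to 10.28 in SP, a call that was lost with centred arrays (0.0558). Hspa4l was not called (-0.47, adjusted p = 0.262). Its SP values of 9.28, 8.90 and 9.39 lay below all PBS values (9.89 to 10.24), but SP replicate 3, at 10.64, lay above them. Without that array Hspa4l was called lower (-0.83, adjusted p = 0.00283 by limma). Hspa14, a ribosome-associated HSP70, was not called either (-0.32, adjusted p = 0.110).

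Of 4 J proteins, which stimulate the ATPase of HSP70 and choose its clients, 2 were called lower. Dnajb1, the stress-inducible HSP40, lay at 10.11, 10.25, 10.47 and 10.53 in PBS and at 8.92, 9.21, 9.44 and 9.49 in SP. The spread was alike in both groups, and the fall was 2.10-fold (difference -1.07, SE 0.15, adjusted p = 0.000712 by limma). Dnaja1 fell by 0.44 (adjusted p = 0.0176 by limma), a call held in 12 of 15 alternatives. Dnaja2, its constitutive relative, had SP values (10.06 to 10.40) above all PBS values (9.96 to 10.01) but missed the threshold (0.22, adjusted p = 0.0615 by limma). Dnajb4 was at 9.19 and 9.18 in SP replicates 1 and 2, at 10.35 and 9.98 in replicates 3 and 4, and at 10.19 to 10.38 in PBS, and was not called (-0.61, adjusted p = 0.0831).

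The study's main text states that some Nrf2-regulated genes were lower in pneumonia and refers to a supplementary list for them. Hsph1, Hspa1a, Hspa1b and Dnajb1 are not named in that text, and whether the list holds them was not examined. The fold changes of that list come from these samples and are no independent evidence of direction. Among predicted microRNA targets, the supplement lists Chordc1 as lower in pneumonia and Fkbp5, Dnajc13, Hspa13 and Hspb7 as higher. Those entries rest on the same samples.

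**Figure D3:**
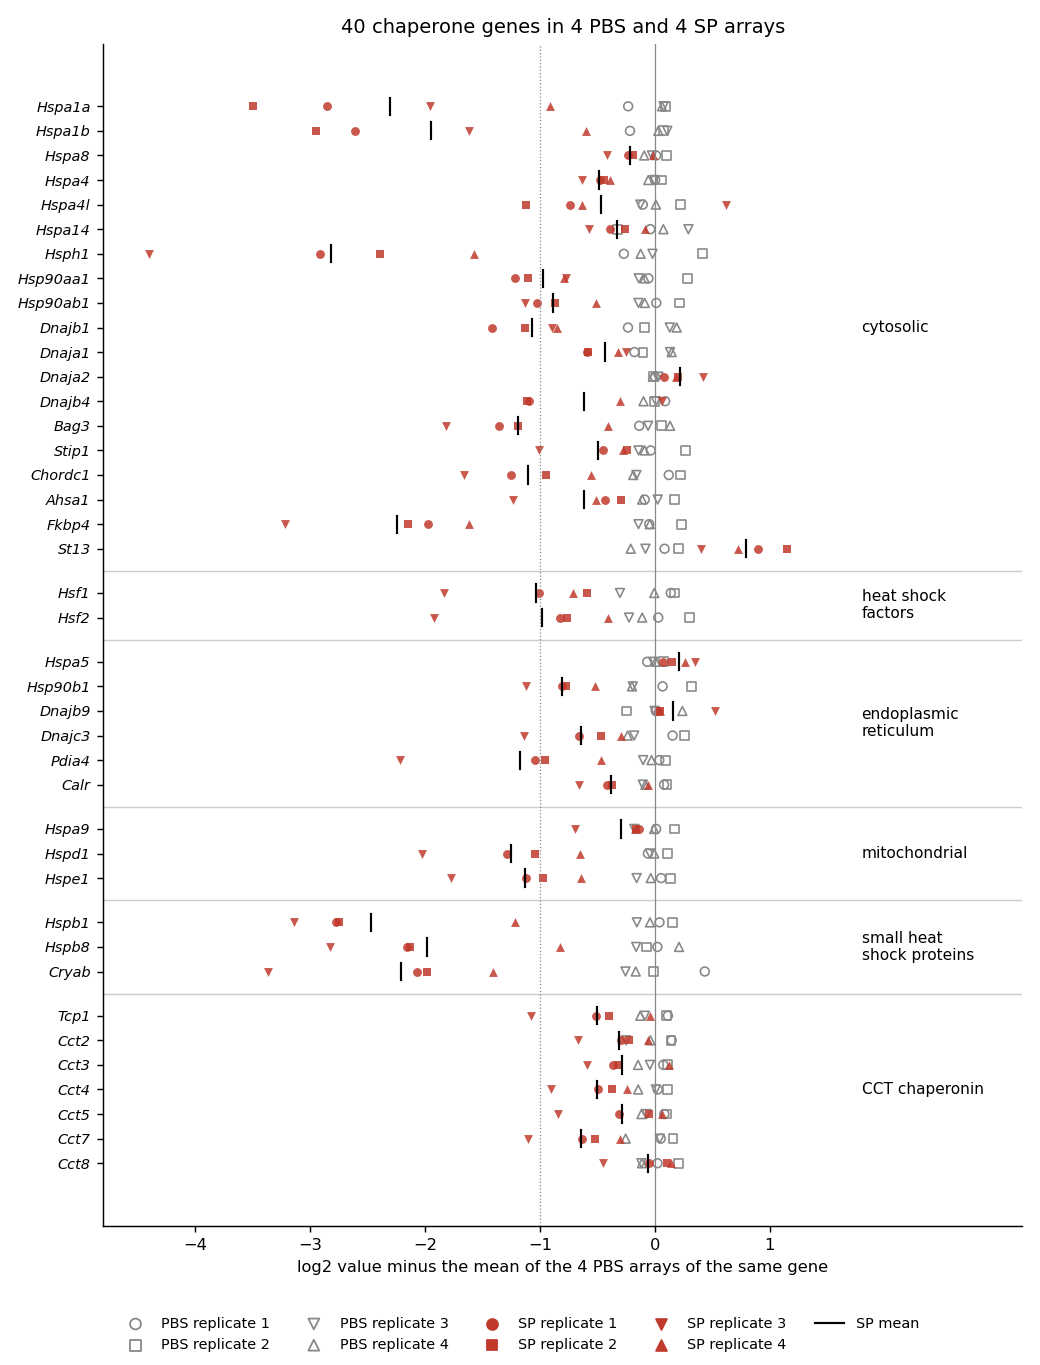
Log2 value of each of the 40 genes on each array, minus the mean of the gene's 4 PBS arrays (grey open symbols PBS, red filled symbols SP, 1 shape per replicate number, black lines the SP mean, dotted line 2-fold lower). SP replicate 3 (downward triangles) is the lowest SP array in 30 genes, SP replicate 4 (upward triangles) the highest in 28, and Hsph1 reaches furthest to the left with an SP mean at -2.82.

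Both cytosolic HSP90 genes fell by nearly the same amount. HSP90 matures kinases, steroid receptors and other signalling proteins. Hsp90aa1, the inducible form, gave 11.81, 12.15, 11.73 and 11.78 in PBS and 10.66, 10.77, 11.09 and 11.08 in SP. The groups were clearly apart, and the fall was 1.96-fold (difference -0.97, SE 0.14, adjusted p = 0.000762 by limma). Hsp90ab1, the constitutive form, gave 12.29, 12.50, 12.14 and 12.19 in PBS and 11.26, 11.41, 11.15 and 11.77 in SP, a 1.85-fold fall (difference -0.88, SE 0.14, adjusted p = 0.00161 by limma). The log2 ratio of Hsp90aa1 to Hsp90ab1 within an array changed by -0.09, with an SD of 0.30 over the SP arrays.

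Of 6 co-chaperones of HSP70 and HSP90, 4 were called lower and 1 higher. Fkbp4, an immunophilin of steroid receptor complexes, lay at 8.83, 9.12, 8.74 and 8.84 in PBS and at 6.91, 6.73, 5.66 and 7.27 in SP. The highest SP value, 7.27, was well below the lowest PBS value, 8.74, and the gene was 4.72-fold lower (difference -2.24, SE 0.31, adjusted p = 0.000644 by limma). St13, which stabilises the ADP-bound state of HSP70, was called higher, with 9.67, 9.79, 9.50 and 9.37 in PBS and 10.48, 10.73, 9.98 and 10.31 in SP. Every SP array was above every PBS array, and the rise was 1.74-fold (difference 0.80, SE 0.17, adjusted p = 0.00553 by limma), a call kept in all 15 alternatives.

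Bag3, an exchange factor that links HSP70 to small heat shock proteins and autophagy, fell by 1.19 (8.84 ± 0.12 against 7.64 ± 0.59, SD over 4 arrays, adjusted p = 0.00699 by limma), with SP replicate 4 (8.43) close to the lowest PBS value (8.70). Chordc1, an HSP90 partner, fell by 1.10 (9.34 ± 0.21 and 8.23 ± 0.47, adjusted p = 0.00491). Ahsa1, which activates the HSP90 ATPase, fell by 0.62 (adjusted p = 0.0330), and this call held in 9 of 15 alternatives (adjusted p of 0.00905 to 0.112 among them). Stip1, the adaptor between HSP70 and HSP90, had groups that did not overlap but missed the threshold (-0.50, adjusted p = 0.0521).

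All 3 small heat shock proteins fell, by 3.96- to 5.54-fold. These proteins hold unfolded clients without using ATP, and they are abundant in muscle and in several epithelia. Hspb1, which encodes HSP27 in people and HSP25 in mice, lay at 11.87, 11.99, 11.68 and 11.79 in PBS and at 9.06, 9.08, 8.69 and 10.61 in SP. The PBS arrays lay close together, and SP replicate 4 was well above the other 3 SP arrays but below every PBS array (5.54-fold lower, difference -2.47, SE 0.37, adjusted p = 0.00105 by limma). Cryab, αB-crystallin, gave 10.86, 10.41, 10.17 and 10.26 in PBS and 8.36, 8.44, 7.06 and 9.02 in SP (4.61-fold lower, difference -2.20, SE 0.38, adjusted p = 0.00209). Hspb8, the partner of BAG3, gave 9.10, 9.004, 8.91 and 9.29 in PBS and 6.92, 6.94, 6.25 and 8.25 in SP (3.96-fold lower, difference -1.99, SE 0.37, adjusted p = 0.00305). The order of the SP arrays was the same in all 3, from replicate 3 at the bottom through replicates 1 and 2 to replicate 4.

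In mitochondria the chaperonin fell and HSP70 did not pass the test. Hspd1 (HSP60) and Hspe1 (HSP10) form the folding chamber of the matrix, and their genes share a divergent promoter. Hspd1 lay at 10.17, 10.34, 10.19 and 10.23 in PBS and at 8.94, 9.20, 8.21 and 9.58 in SP (2.38-fold lower, difference -1.25, SE 0.25, adjusted p = 0.00485 by limma). Hspe1 lay at 10.47, 10.55, 10.26 and 10.38 in PBS and at 9.30, 9.44, 8.64 and 9.77 in SP (2.19-fold lower, difference -1.13, SE 0.22, adjusted p = 0.00361). The SP arrays kept the same order in both genes, and the within-array log2 ratio of the pair changed by -0.12 with an SD of 0.11 over the SP arrays. Hspa9, the mitochondrial HSP70 that draws proteins through the inner membrane, was at 9.97 to 10.32 in PBS and at 10.02, 9.99, 9.46 and 9.98 in SP (-0.29, adjusted p = 0.123).

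The CCT chaperonin, a ring complex that folds actin and tubulin, showed the smallest differences. Cct7 (-0.64, adjusted p = 0.0181 by limma) and Cct4 (-0.50, adjusted p = 0.0219) were called lower, in both cases with SP values entirely below PBS values. Cct7 was called in 14 and Cct4 in 11 of 15 alternatives. Tcp1 missed the threshold (-0.51, adjusted p = 0.0663), as did Cct2, Cct3 and Cct5 (-0.31 to -0.29, adjusted p of 0.111 to 0.227). Cct8 was at 8.91 to 9.24 in PBS and 8.58 to 9.17 in SP, with a difference of -0.06 and a 95% confidence interval of -0.39 to 0.27 (adjusted p = 0.724), and its sign changed under each other scaling. SP replicate 3 was the lowest array of every CCT subunit, and SP replicate 4 lay within the PBS range of Tcp1, Cct2, Cct5 and Cct8, and above that of Cct3 (10.22 against 9.94 to 10.20).

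Of the 6 chaperones of the ER, 4 were called lower and none higher. Hspa5, the ER HSP70 known as BiP, was at 12.11, 12.25, 12.16 and 12.18 in PBS and 12.24, 12.33, 12.52 and 12.43 in SP. The SP values were the higher ones except that replicate 1 lay just under the highest PBS value, and the gene was not called (0.21, adjusted p = 0.0666 by limma). It was called higher by the methods' t-test (adjusted p = 0.0497) and with centred arrays (0.49, adjusted p = 0.00389), and its difference was -0.029 after another quantile normalization. Hsp90b1 (GRP94), the ER HSP90, gave 11.89, 12.14, 11.63 and 11.62 in PBS and 11.01, 11.05, 10.70 and 11.30 in SP, a 1.75-fold fall with no overlap (difference -0.81, SE 0.16, adjusted p = 0.00427 by limma). The within-array log2 ratio of Hspa5 to Hsp90b1 was thus higher on every SP array, by 0.78 to 1.47 above its PBS mean.

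Pdia4, a disulfide isomerase, gave 10.88, 10.93, 10.74 and 10.81 in PBS and 9.79, 9.88, 8.62 and 10.37 in SP, and was 2.25-fold lower (difference -1.17, SE 0.32, adjusted p = 0.0196 by limma). Dnajc3, an ER J protein, fell by 0.64 (adjusted p = 0.0294, called in 10 of 15 alternatives). Calr, the lectin chaperone calreticulin, was called at -0.38 (adjusted p = 0.0426) with SP replicate 4 (12.02) inside the PBS range, and this call held in 4 of 15 alternatives. Dnajb9, an ER J protein and a sensitive target of the unfolded protein response, was not called (0.16, adjusted p = 0.365).

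The motifs shown above were then counted in the windows of all genes. Of the 40 chaperone genes 32 had a window. Hspa8, Hsp90aa1, Hsp90ab1, St13, Hsf1, Hspa9, Cryab and Cct4 had none, and of these Hsf1 and Cryab were at least 2-fold lower. The heat shock element was found in 4 of them (12.5%), namely Hsph1, Chordc1, Hspd1 and Hspe1, against 179 of 27025 genes (0.662%), and the core GAANNTTC in 12 (37.5%), against 9.04% of genes. Of the 12 with the core, 10 were at least 2-fold lower in SP, the exceptions being Dnaja1 and Cct2, and the median difference was -1.60. Of the 20 without it, 2 were, namely Dnajb1 and Pdia4, and the median was -0.49. The genes with a motif are not all separate cases. Hspd1 and Hspe1 share the same site, read from opposite strands, and Hspa1a and Hspa1b have near-identical windows and uncertain separate values. Over all genes with a row and a window, 10.7% of the 1239 with the core and 13.1% of the 14203 without it were at least 2-fold lower, with median differences of 0.11 and 0.07. The contrast among the chaperones was thus not seen over all genes with these letters. A match of letters is a description and not evidence of binding.

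**Figure D4:**
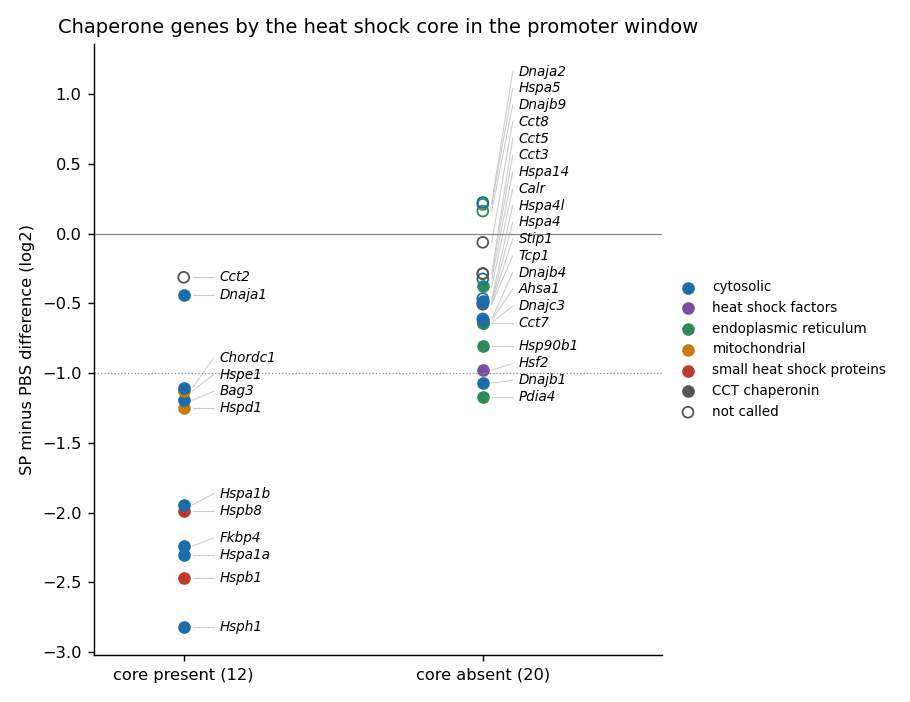
SP minus PBS difference (log2) of the 32 chaperone genes with a promoter window, divided by whether the window holds the core of the heat shock element (coloured by class, filled where called, dotted line 2-fold lower). Of 12 genes with the core 10 lie below -1, and of 20 without it 2 do. Hspd1 and Hspe1 share the same site, and Hspa1a and Hspa1b are near-identical copies.

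The ER stress element was found in 4 of the 6 ER genes, Hspa5, Hsp90b1, Dnajc3 and Calr, and in 0.137% of all genes. None of the 4 was at least 2-fold lower, and their differences ran from -0.81 for Hsp90b1 to 0.21 for Hspa5. CCACG alone was in 65.6% of the chaperone windows and 35.5% of all genes.

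Other genes of the same systems were read from 8 lists that together held 114 genes with a row. Of these, 31 (27.2%) were called lower and 19 (16.7%) higher, with a median difference of -0.07. These shares were nearer to those of all rows (22.6% and 21.5%) than the 40 chaperones gave. Among 13 other HSP70, HSP90 and J-domain genes of the cytosol, 6 (46.2%) were lower and 2 (15.4%) higher. The J protein Dnaja4 fell from 8.25 to 8.62 in PBS to 5.23 to 6.59 in SP (-2.39, adjusted p = 0.000218 by limma), and the endosomal J protein Dnajc13 rose from 9.31 to 9.37 to 10.47 to 10.69 (1.27, adjusted p = 1.10e-05). Among 19 other co-chaperones 8 (42.1%) were lower and 3 (15.8%) higher. The phosphatase gene Ppp5c fell by 1.52 (adjusted p = 0.00232). Fkbp5, the glucocorticoid-inducible relative of Fkbp4, rose by 2.00 (adjusted p = 4.17e-05), from 7.27 to 7.72 in PBS to 9.21 to 9.77 in SP, so that these HSP90 immunophilins went in opposite directions.

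In the ER, 6 of 21 other chaperone genes (28.6%) were lower and 3 (14.3%) higher, beside 22.6% and 21.5% of all rows. The disulfide isomerase gene Pdia5 fell by 1.52 (adjusted p = 0.00421 by limma), and Hspa13, an ER-bound HSP70, rose by 1.07 (adjusted p = 0.000391). The 22 regulators of the unfolded protein response and genes of ER-associated degradation had 2 genes lower and 6 higher (27.3%, beside 21.5% of all rows), and their median of 0.09 was close to the 0.10 of all rows. Ddit3, which encodes the stress transcription factor CHOP, rose from 7.67, 7.02, 8.65 and 8.25 in PBS to 10.07, 10.16, 9.54 and 9.35 in SP (1.89, adjusted p = 0.00311). Derl3, a membrane factor of ER-associated degradation, fell by 1.34 (adjusted p = 0.00307).

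Of 14 other mitochondrial chaperones and proteases 4 (28.6%) were lower and 1 (7.14%) higher, beside 22.6% and 21.5% of all rows. The matrix protease gene Lonp1 fell by 1.03 (adjusted p = 0.00704 by limma). Of 7 other small heat shock genes 3 (42.9%) were lower and 2 (28.6%) higher. Hspb11, whose product is also a subunit of intraflagellar transport in cilia, fell by 1.03 (adjusted p = 0.000133). Hspb7 rose by 1.03 (adjusted p = 0.00353), but its PBS values of 4.70 to 5.01 were close to those of Y-linked genes, so that its size of change is not exact. Of 12 other chaperonin and prefoldin subunits 1 (8.33%) was lower and 2 (16.7%) were higher. Of 6 other heat shock factors and HSF1 partners 1 (16.7%) was lower, Hsf4 (-0.72, adjusted p = 0.00258 by limma). This fall was under 2-fold, and Hsf4 was named after its value was seen. Its SP values of 5.05 to 5.41 lay close above those of Y-linked genes (up to 4.90), so that its size of change is not exact.

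**Figure D5:**
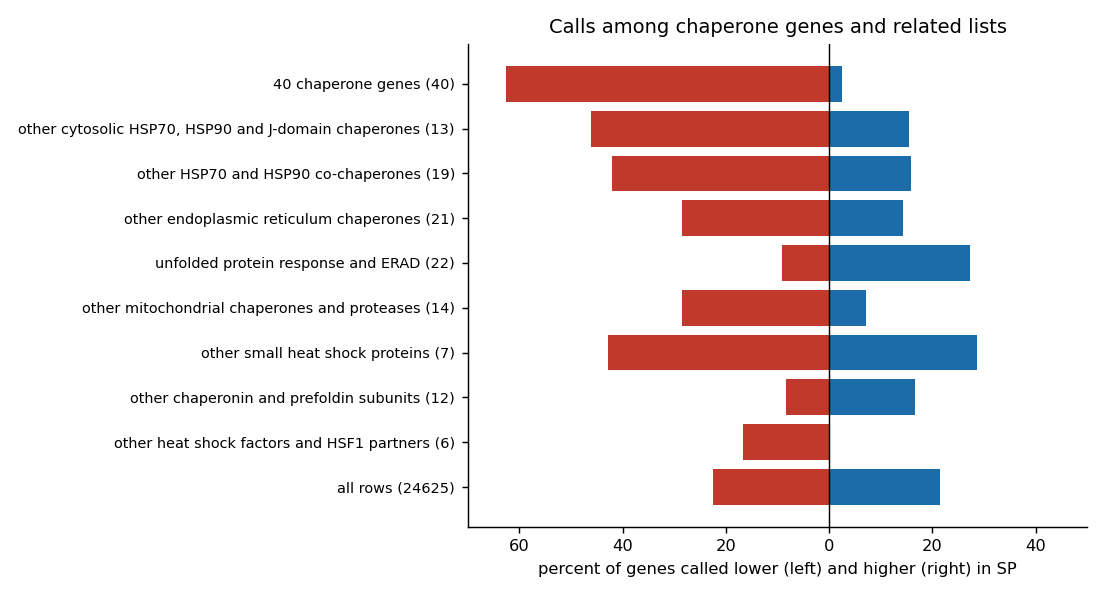
Percent of genes called lower (red, to the left) and higher (blue, to the right) in SP among the 40 chaperone genes, 8 lists of related genes and all 24625 rows, with the number of genes in brackets. The 40 chaperones stand at 62.5% lower and 2.50% higher, the unfolded protein response and degradation list (ERAD, ER-associated degradation) at 9.09% and 27.3%, and all rows at 22.6% and 21.5%.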

How the data were processed

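Values were the log2 signals that the authors deposited, 1 table of 24625 rows and 8 arrays, made by robust multi-array averaging (RMA) with background correction, quantile normalization and median polish, so they are relative within an array. The submitters' processing notes name Affymetrix Expression Console, RMA and Partek. All 8 value columns were used. Row accessions were paired with symbols through RefSeq genes of GRCm38.p6, which named 19915 rows (80.9%). A symbol on several rows was represented by its row of highest mean. Groups followed the sample titles. SP and PBS were compared with limma 3.58.1 (R 4.3.3; lmFit, eBayes, two-sided, no covariates) with Benjamini-Hochberg adjustment over all rows. On simulated data with 200 rows changed, limma recovered 73% of changes of 1 log2 unit and 93% of those of 2, with 14 false calls. The simulation drew independent noise and changed far fewer rows than the 44.1% called here, so it does not cover these settings. Thresholds were an adjusted p of 0.05 and, for size, 2-fold. The 4 arrays per group limit the precision. The 40 genes, their classes, the 8 related lists, the marker lists (neutrophil, ciliated, club, alveolar type 1 and 2, endothelial, fibroblast, alveolar macrophage, B and T cell), the immediate early genes and the Y-linked genes were chosen with earlier results of these data known. The rule for names took all 40 genes, the largest fall and rise of each related list among 2-fold calls without overlap, and the 2 brightest markers of each list, of which the text gives Scgb1a1, Sftpc and Chil3. Promoter letters came from RefSeq windows of GRCm38.p6, tables and figures from Python 3.11.15.

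Alternatives were arrays centred on their median, a further quantile normalization, array weights, a replicate block, a robust prior that follows intensity, the methods' t-test (their one-way ANOVA), rows with a mean below the median left out, and each array left out in turn. Leaving out SP replicates 3 and 4 together was chosen after seeing the data. Flags for single arrays took 0.829 as the critical value of Dixon's ratio. The microRNA arrays of the study were not analysed here.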

Additional observations from a re-analysis of the deposited data

Results flagged for a closer look

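A single array far from the other 3 of its group was found in 3 of 80 groups (40 genes in 2 groups each) by Dixon's ratio, and chance flags about 1 in 20 groups, or 4 here. Hspa1a in PBS replicate 1 was at 12.06, below the other PBS arrays at 12.35 to 12.38. Dnajb9 in SP replicate 3 was at 11.79, above the other SP arrays at 11.30 to 11.32. Hspa9 in SP replicate 3 was at 9.46, below the other SP arrays at 9.98 to 10.02.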

How the results depend on the processing

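Of the 25 genes called lower, 17 kept the call in all 15 alternatives, and St13 stayed higher in all. The count of genes called lower was 20 to 29 and of genes at least 2-fold lower 9 to 17 without any 1 array, 9 without SP replicate 3. The count called higher was 1 to 2 without any 1 array (2 without SP replicate 1) and 2 by the methods' t-test. Arrays centred on their median gave 18 lower, 7 at least 2-fold lower, 4 higher and 1 at least 2-fold higher, and class medians of -0.34 (cytosolic), -0.23 (ER), -0.032 (CCT) and -0.35 (all 40). St13 was at least 2-fold higher there, with array weights (1 gene) and without SP replicates 3 and 4 (1 gene). The cytosolic median was -0.84 with array weights and -0.95 without SP replicates 3 and 4, and -0.83 to -0.61 without any 1 array. Sign changes concerned genes that were not called: Hspa8 (0.065, centred arrays), Hspa5 (-0.029, quantile normalization), Dnajb9 (-0.031, array weights; -0.056, quantile normalization) and Cct8 (0.067, array weights; 0.22, centred arrays; 0.0086, quantile normalization; 0.028, without SP replicates 3 and 4; -0.13 to 0.067 without any 1 array, above 0 without PBS replicate 2 or SP replicate 3). The cause was not tested, except that centring adds about 0.28 to every difference by construction. With the replicate block, 25 genes were called lower, Calr lost its call and Stip1 gained one. The deviations of same-numbered samples from their group means had r of -0.27 to 0.35 over rows, with 0.35 for replicate 3. The labels do not say whether a number marks a shared day or batch. Correlations over rows cannot decide it, so pairing is unknown. Taking the dimmest row of a symbol had no effect, since each gene had 1 row. The number of arrays and the scaling limit differences under about 0.3, and the scaling limits larger ones too. With centred arrays Hspa4, Dnaja1, Ahsa1, Dnajc3, Calr, Cct4 and Cct7 (-0.64 to -0.38 in the main fit) lost their calls. Dnajb1, Bag3, Chordc1, Hsf1, Pdia4, Hspd1 and Hspe1 (-1.25 to -1.04 in the main fit) were no longer at 2-fold there.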
